A study of Mus musculus with 9 samples.

Results

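Jak2, Stat3 and Socs3 were chosen by name as 3 of the 330 gene names on a mouse metabolic gene array, and their transcripts were measured during fat cell differentiation of 3T3-L1, a preadipocyte line of mouse origin, with and without chickpea extract. The chickpea groups were cells in differentiation medium with 0.5% chickpea extract on days 2, 4, 6 and 8, and the control groups were cells in the same medium without additive on those days and confluent preadipocytes on day 0. All cells harvested after day 0 were induced for 2 days with insulin at 5 µg/ml, dexamethasone at 10 µM and methylisobutylxanthine at 0.5 mM, and of these only insulin was continued afterwards. Each medium and day had 1 array, 9 in all, so no group was repeated. The labels do not state what the extract contained.

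JAK2 is a tyrosine kinase that sits on the cytoplasmic tails of cytokine and hormone receptors, among them those for leptin, growth hormone and prolactin, and it is switched on when the hormone binds. STAT3 is a transcription factor that such kinases phosphorylate, after which it enters the nucleus and raises transcription of its targets. SOCS3 is one of these targets and closes a feedback loop, since the SOCS3 protein binds the receptor and the kinase and shuts the signal off. In fat cells SOCS3 is also known to bind the insulin receptor and its substrates and to dampen insulin signalling. The array measured transcripts, not phosphorylation.

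RefSeq places Jak2 on chromosome 19 (29251803 to 29313095), Stat3 on chromosome 11 (100886806 to 100939594) and Socs3 on chromosome 11 (117966079 to 117970336), in build GRCm38.p6. The array files name the probes (sqMM069 for Jak2, sqMM122 for Stat3 and sqMM120 for Socs3) and give them no genome position. The promoters of the 3 genes are shown because STAT3 acts on Socs3 through its promoter. Each window holds 250 bases before and 50 bases after the RefSeq start, 5′ to 3′ on the gene's strand, and capitals mark the motif bound by STAT factors, TTCNNNGAA, which reads the same on both strands. The windows are chr19:29251553-29251852 on the + strand for Jak2, chr11:100939491-100939790 on the - strand for Stat3 and chr11:117969317-117969616 on the - strand for Socs3. For Stat3 and Socs3 the start used in the promoter table lies inside the outer bounds of the gene given above.
Socs3: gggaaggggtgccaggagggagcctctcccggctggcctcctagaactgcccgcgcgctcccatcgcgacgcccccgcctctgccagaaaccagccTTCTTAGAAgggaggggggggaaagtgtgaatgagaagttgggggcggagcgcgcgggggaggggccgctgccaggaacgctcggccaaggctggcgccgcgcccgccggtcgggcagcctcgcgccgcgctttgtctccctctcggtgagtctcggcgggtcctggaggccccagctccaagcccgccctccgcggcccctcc
Stat3: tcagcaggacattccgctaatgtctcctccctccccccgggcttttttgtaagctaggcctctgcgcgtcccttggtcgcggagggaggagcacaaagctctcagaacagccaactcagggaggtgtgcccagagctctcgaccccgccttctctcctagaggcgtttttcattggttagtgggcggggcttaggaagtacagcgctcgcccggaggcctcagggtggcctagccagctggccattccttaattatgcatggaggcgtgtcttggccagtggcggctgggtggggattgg
Jak2: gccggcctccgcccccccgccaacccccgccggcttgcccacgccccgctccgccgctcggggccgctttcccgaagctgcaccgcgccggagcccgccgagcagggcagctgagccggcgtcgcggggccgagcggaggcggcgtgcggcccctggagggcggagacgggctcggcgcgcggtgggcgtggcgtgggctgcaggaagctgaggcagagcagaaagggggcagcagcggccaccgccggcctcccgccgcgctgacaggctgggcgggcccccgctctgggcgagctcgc
The Socs3 window held 1 match, TTCTTAGAA, which begins 154 bases before the start. The Stat3 and Jak2 windows held 0 matches. Of all 32851 RefSeq promoter windows of this length, 8.30% held the motif, so a match is common, and the array data do not test whether it is used.

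All 3 genes were detected, at more than 10 intensity units above local background, on all 9 arrays. Across the arrays 62.3% to 73.2% of the 321 metabolic genes passed that limit, and the median gene had 47 to 168 units. Control probes with 4 spots on an array had a median SD between their spots of 0.04 to 0.21 on the log2 scale, while Jak2, Stat3 and Socs3 had 1 spot each. Adipocyte markers differed between the media: their 14 genes summed to 4806 to 8793 units on the chickpea arrays of days 2 to 8, against 5154 to 87311 on the control arrays of those days, and on day 2 the chickpea sum, 7762, was above the control sum, 5154. The 8 preadipocyte markers on the array summed to 3536 to 5491 units in chickpea medium, against 6162 to 19135 in control medium on those days. Such sums are unscaled and rest on the brightest genes. With quantile scaling 4 of the 7 tested preadipocyte markers had a chickpea effect below 0, and their median was -0.15, against 0.21 over all tested genes. Of these 7, 1 was called lower and 0 higher, beside 6.28% and 8.79% of all tested genes. On the chickpea arrays 7 to 10 of the 14 adipocyte markers were above the limit, against 11 to 14 on the control arrays of days 2 to 8, and Adipoq (adiponectin) had -1 and 1 units on days 2 and 4 in chickpea medium, against 49 and 4326 in control medium. The part of either list in the results below was not tested, and fewer cells of a type cannot be told apart from less RNA per cell. The 2 hepatocyte markers on the array were at or near 0 throughout, and the macrophage and muscle lists had 0 genes on the array. The residual spread behind every test is that between days, which may hold technical and biological variation.

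Jak2, the kinase, was higher with chickpea relative to the other genes of the array on days 2, 4 and 6, while Stat3 and Socs3 were lower relative to them on all 4 days. Measured against the median tested gene and averaged over days 2 to 8, the chickpea effect was 0.70 for Jak2, -0.97 for Stat3 and -0.72 for Socs3 on the log2 scale with quantile scaling. Over 6 scalings these relative effects lay between 0.63 and 0.77 for Jak2, -0.98 and -0.84 for Stat3 and -0.82 and -0.68 for Socs3. The settings that differ only by a constant per array could move these relative effects little, since the median gene shifts with them. The narrow ranges are therefore largely set by construction and say little about the choice among those settings. With quantile scaling, 1 of the 3 genes, Jak2, had a limma adjusted p under 0.05, where 8.79% of the 239 tested genes were called higher and 6.28% lower.

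The Jak2 spot had 139, 169, 183 and 102 units on days 2, 4, 6 and 8 in chickpea medium, against 36, 137, 159 and 206 units on the same days in control medium and 102 units in the preadipocytes of day 0. The control array of day 2 was thus the low point, and its spot stood 0.872 background SDs above its surroundings, against 1.40 on the chickpea array of that day. After quantile scaling the log2 levels were 6.04, 6.85, 6.68 and 6.08 in chickpea medium and 5.03, 5.65, 5.65 and 5.69 in control medium, with 5.94 on day 0. All 4 chickpea levels of Jak2 were above all 4 control levels of days 2 to 8, as for 18.4% of all tested genes.

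The same-day differences of Jak2 were 1.01, 1.20, 1.03 and 0.39 from day 2 to day 8. It was at least 2-fold higher on days 2, 4 and 6, as were 21.4%, 22.5% and 18.9% of the genes compared on those days, and above 0 on all 4 days, as were 27.6% of the tested genes. On the deposited values the differences were 2.02, 0.58, -0.02 and -0.38, around a median gene at 0.92, -0.33, -0.67 and -0.38. Jak2 rose with chickpea by 0.91 ± 0.20 (SE; limma adjusted p = 0.0427), and 84.0% of the other tested genes had a smaller estimate. This call held in 7 of 15 alternatives. It was lost on the authors' deposited values, with median or control gene scaling, without scaling, with a trended robust variance prior, and without the arrays of day 2, 4 or 6. On day 8, 60.1% of the other genes had a smaller difference than Jak2 with quantile scaling and 49.6% on the deposited values, so Jak2 then lay near the middle of the array.

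The Stat3 spot had 469, 356, 259 and 285 units on days 2 to 8 in chickpea medium, against 804, 877, 715 and 837 units on the same days in control medium and 549 units on day 0. Every chickpea array was below every control array in these unscaled units, for which the share of all genes was not counted. The median gene had 83, 55, 64 and 64 units on days 2 to 8 in chickpea medium. In control medium it had 47, 129, 129 and 168 units on those days and 57 on day 0. The Stat3 spot on the chickpea array of day 6 stood 1.485 background SDs above its surroundings, against 12.18 on the control array of that day. On the other chickpea arrays it stood 4.76 to 8.33 background SDs above them. Quantile scaled log2 levels were 7.75, 7.51, 7.18 and 7.58 in chickpea medium and 9.56, 7.95, 7.81 and 7.75 in control medium, with 8.18 on day 0. The highest chickpea level, on day 2, equalled the lowest control level, on day 8.

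Stat3 differed between the media by -1.81, -0.43, -0.63 and -0.16 from day 2 to day 8, below 0 on 4 of 4 days, as for 12.6% of the tested genes. The difference of day 2 was past 2-fold, as for 19.6% of the genes compared on that day. The fitted effect was -0.76 ± 0.32 and did not pass the test (limma adjusted p = 0.147). A lower estimate was found for 17.6% of the other tested genes, and without day 2 the effect was -0.40. The size on day 2 rests on the scaling: on the deposited values the differences were -0.37, -1.23, -1.58 and -0.89, while the median gene stood at 0.92 on day 2 and between -0.67 and -0.33 afterwards. Relative to that median Stat3 was at -1.29, -0.90, -0.91 and -0.50. Relative to the median with quantile scaling it was at -1.81, -0.63, -0.84 and -0.37. Day 2 thus had the largest relative difference and day 8 the smallest under both. With control gene scaling Stat3 passed the test, at -1.38 (limma adjusted p = 0.0257). In that setting 28 of 242 genes were called lower and 2 higher, and the median gene was at -0.40. Relative to it Stat3 was at -0.98, against -0.97 with quantile scaling.

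The feedback inhibitor Socs3 had 130, 70, 66 and 79 units on days 2 to 8 in chickpea medium, against 148, 168, 171 and 255 units on the same days in control medium and 168 units on day 0. All 4 chickpea spots were below all 5 control spots in these unscaled units, for which the share of all genes was not counted. In the same units the median gene was also lower with chickpea on days 4, 6 and 8. Those of days 4, 6 and 8 were also dim against their surroundings, at 1.17, 0.468 and 0.945 background SDs, against 3.40, 1.49 and 2.18 in control medium. Quantile scaled log2 levels were 5.94, 5.50, 5.41 and 5.65 in chickpea medium and 6.90, 5.85, 5.74 and 6.07 in control medium, with 6.42 on day 0, so the ranges of the media overlapped.

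Same-day differences of Socs3 were -0.96, -0.35, -0.33 and -0.41, below 0 on 4 of 4 days, as for 12.6% of the tested genes. The fitted effect was -0.51 ± 0.19, which did not pass the test over all genes (limma adjusted p = 0.107), and 23.1% of the other tested genes had a lower estimate. It passed with median scaling, at -0.81 (limma adjusted p = 0.0454), and with control gene scaling, at -1.22 (limma adjusted p = 0.0305). With median scaling 21 of 240 genes were called lower and 6 higher, and with control gene scaling 28 of 242 lower and 2 higher. Relative to the median gene Socs3 was at -0.76 and -0.82 in these settings, against -0.72 with quantile scaling. On the deposited values Socs3 was above 0 on day 2, at 0.22, where the median gene was at 0.92, and it was at -1.16, -1.47 and -1.01 on days 4, 6 and 8. Relative to the median gene the 4 deposited differences were -0.70, -0.83, -0.81 and -0.62.

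**Figure D1:**
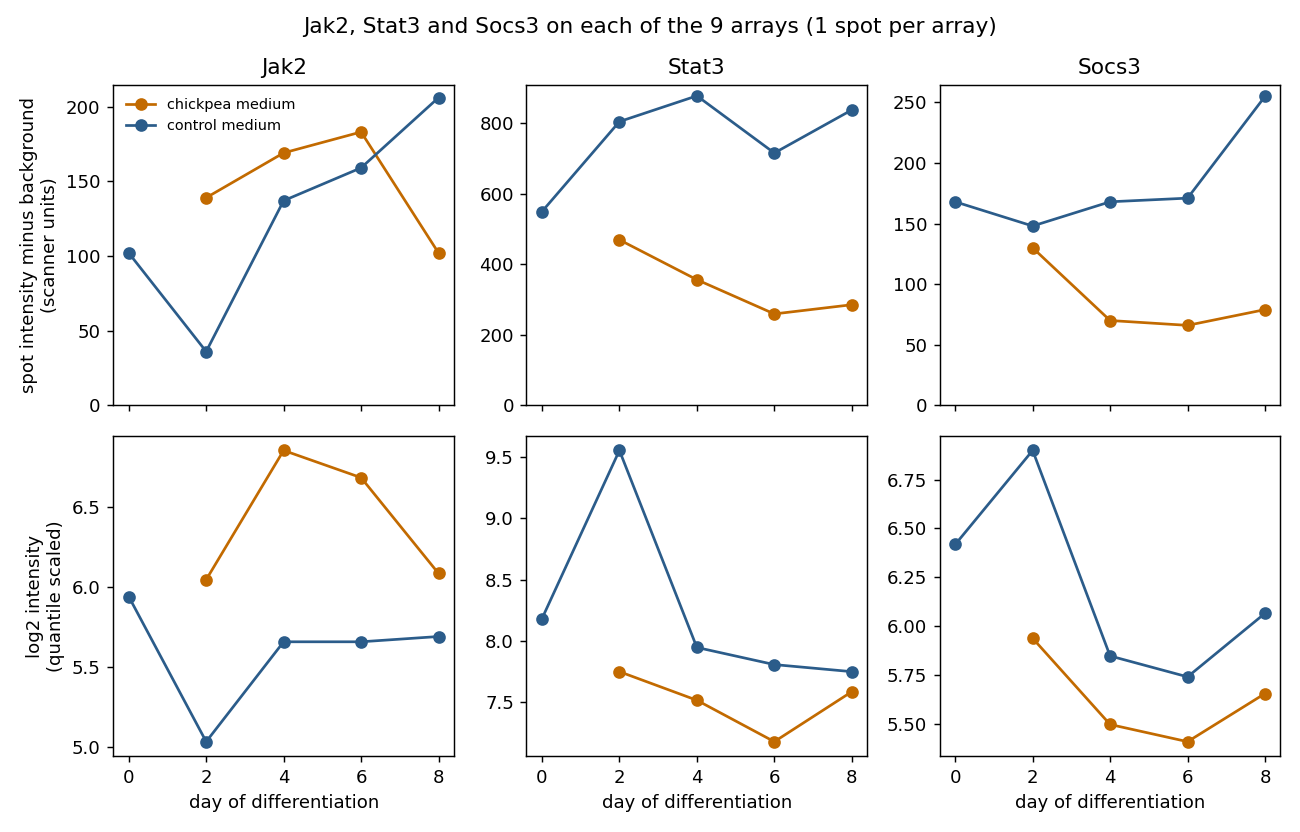
Spot intensity above background in scanner units (top) and quantile scaled log2 intensity (bottom) of Jak2, Stat3 and Socs3 by day of differentiation, 1 point per array, chickpea medium in orange and control medium in blue. Stat3 in scanner units lies between 259 and 469 on the chickpea arrays, below all 5 control arrays, and after scaling Jak2 lies above the control arrays on each of days 2 to 8. Scanner units are not scaled, and in them the median gene was also lower with chickpea on days 4, 6 and 8.

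**Figure D2:**
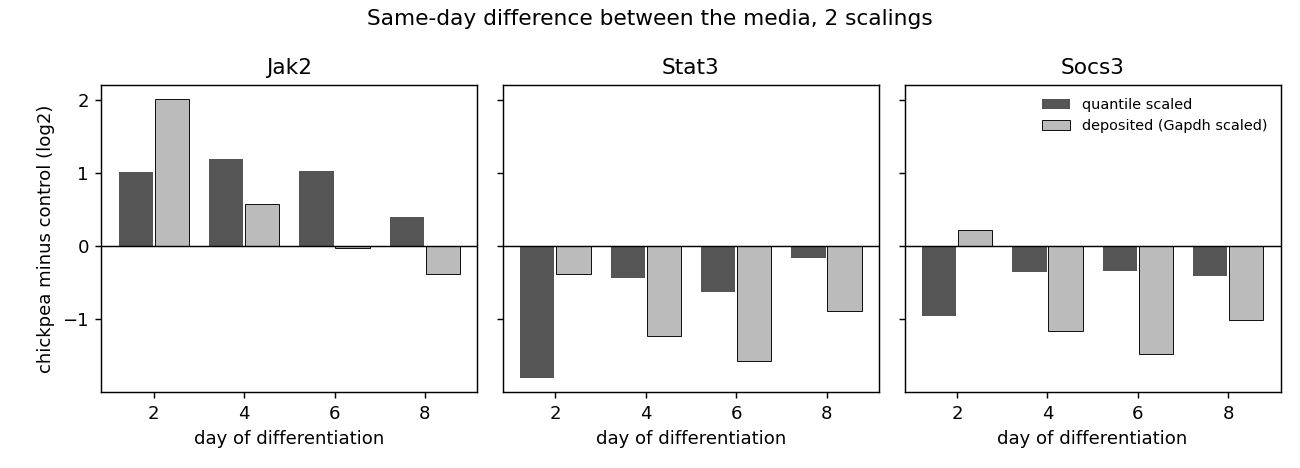
Chickpea minus control on the same day, in log2, for Jak2, Stat3 and Socs3, with quantile scaling (dark bars) and on the deposited values (light bars). The bars of Stat3 are below 0 on all 4 days with both scalings, while Jak2 on days 6 and 8 and Socs3 on day 2 change side.

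How the 3 genes moved against each other does not depend on a factor that multiplies a whole array. The chickpea difference of Jak2 exceeded that of Stat3 by 2.82, 1.63, 1.66 and 0.56 from day 2 to day 8, a mean of 1.67 ± 0.92 (SD over 4 days). On the deposited values the excess was 2.39, 1.81, 1.56 and 0.50, and in scanner units with no scaling it was 2.73, 1.60, 1.67 and 0.54. Socs3 stood below Jak2 in the same way, by -1.97, -1.55, -1.36 and -0.80 on days 2 to 8 (mean -1.42 ± 0.48). The exact two-sided sign-flip permutation test over 4 days gave p = 0.125 for either pair, the smallest that 4 days allow, and 0.188 after Benjamini-Hochberg adjustment over the 3 pairs. Both gaps kept their direction on all 4 days.

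Socs3 and Stat3 differed less from each other. Their chickpea differences differed by 0.85, 0.08, 0.30 and -0.25 from day 2 to day 8, a mean of 0.24 ± 0.46 (SD over 4 days; exact sign-flip permutation p = 0.375, adjusted p = 0.375). The spread between days was larger than this mean. The Jak2 spot lies in block A of each array and the Stat3 and Socs3 spots in block B. With each gene centred on the median of the tested genes in its own block (118 in A and 121 in B), the mean gap was 1.61 between Jak2 and Stat3 and -1.36 between Socs3 and Jak2, an alternative added after the values were seen.

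**Figure D3:**
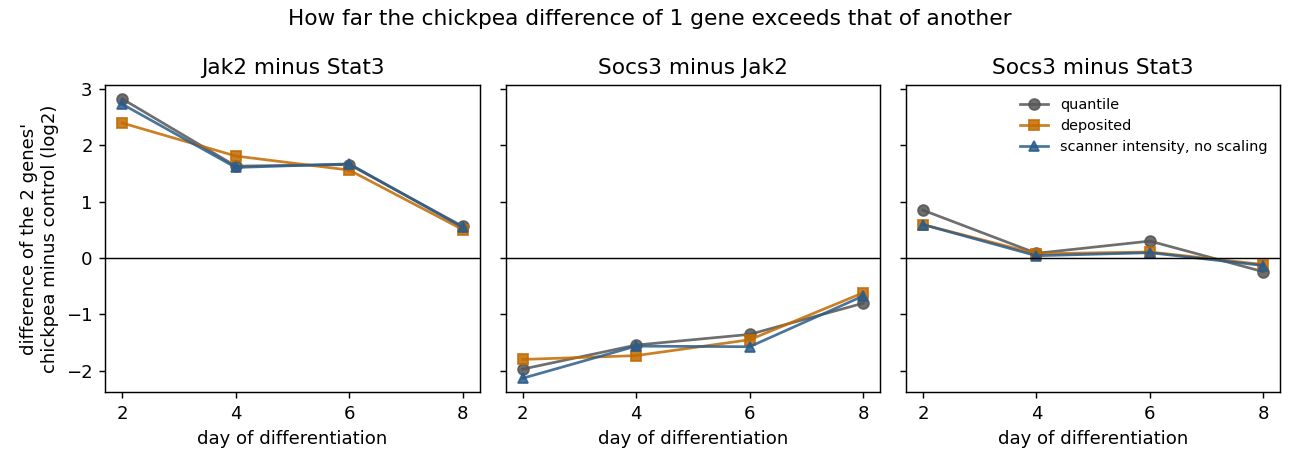
Difference between the chickpea minus control values of a pair of genes, in log2, by day, with quantile scaling (circles), on the deposited values (squares) and in scanner units without scaling (triangles). Jak2 minus Stat3 is above 0 and Socs3 minus Jak2 below 0 on every day, both nearest to 0 on day 8, and Socs3 minus Stat3 lies between -0.25 and 0.85.

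The gap between the media did not change with day past the test for any of the 3 genes, where 3.35% of the 239 genes were called, 2.51% with a rising and 0.837% with a falling difference. Per day, the chickpea difference of Jak2 had a slope of -0.10 ± 0.07 (limma adjusted p = 0.322). That of Stat3 was 0.24 ± 0.09 (limma adjusted p = 0.164) and that of Socs3 was 0.08 ± 0.07 (limma adjusted p = 0.382). Without the arrays of day 2 the slope was -0.20 for Jak2, 0.07 for Stat3 and -0.02 for Socs3, and without those of day 8 that of Jak2 was -0.004. Without scaling the slope of Jak2 was -0.44. Relative to the slope of the median gene, all 6 scalings kept the sign, with -0.15 to -0.11 for Jak2, 0.15 to 0.23 for Stat3 and 0.05 to 0.10 for Socs3. As above, the settings that differ only by a constant per array could move these relative values little.

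In the course of differentiation none of the 3 genes passed the test of day 8 against day 0, where 2.09% of the genes were called, 1.26% higher and 0.837% lower. The fitted difference was -0.51 ± 0.36 for Jak2 (limma adjusted p = 0.443), -0.14 ± 0.57 for Stat3 (limma adjusted p = 0.910) and -0.30 ± 0.33 for Socs3 (limma adjusted p = 0.616). The fit assumes 1 chickpea effect for all days, so these are modelled values for control medium. Measured on day 8 against day 0, Jak2 had -0.25 in control and 0.14 in chickpea medium. Stat3 had -0.43 and -0.60, and Socs3 had -0.35 and -0.76. Each gene's fitted value lay outside its measured pair. In the fit the median gene had -0.36, so Stat3 and Socs3 lay 0.23 and 0.06 above it and Jak2 0.14 below it. Over the 6 scalings these relative values ranged from -0.42 to -0.14 for Jak2, -0.09 to 0.23 for Stat3 and -0.24 to 0.06 for Socs3. The single array of day 0 adds nothing to the error of that fit.

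On single days, each medium can only be set against that same day 0 array. Jak2 on days 2 to 8 differed from day 0 by 0.11, 0.91, 0.74 and 0.14 in chickpea medium and by -0.91, -0.28, -0.28 and -0.25 in control medium. For Stat3 the differences from day 0 were -0.43, -0.67, -1.01 and -0.60 in chickpea medium and 1.37, -0.24, -0.38 and -0.43 in control medium. Stat3 in control medium on day 2 was thus at least 2-fold above day 0, as were 16.1% of the genes compared there. Stat3 in chickpea medium on day 6 was 2-fold below day 0, as was Socs3, and as were 15.2% of the genes compared there. Socs3 differed from day 0 by -0.48, -0.92, -1.01 and -0.76 in chickpea medium and by 0.48, -0.57, -0.68 and -0.35 in control medium. On the deposited values the higher levels of control day 2 were not seen: Stat3 was at -0.10 and Socs3 at -0.82 against day 0. In scanner units Stat3 had 804 on control day 2, against 549 on day 0, and Socs3 had 148, against 168, while the median gene had 47, against 57. Whether control day 2 is above day 0 therefore depends on the scaling. With no replicate these single-day values describe the arrays.

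**Figure D4:**
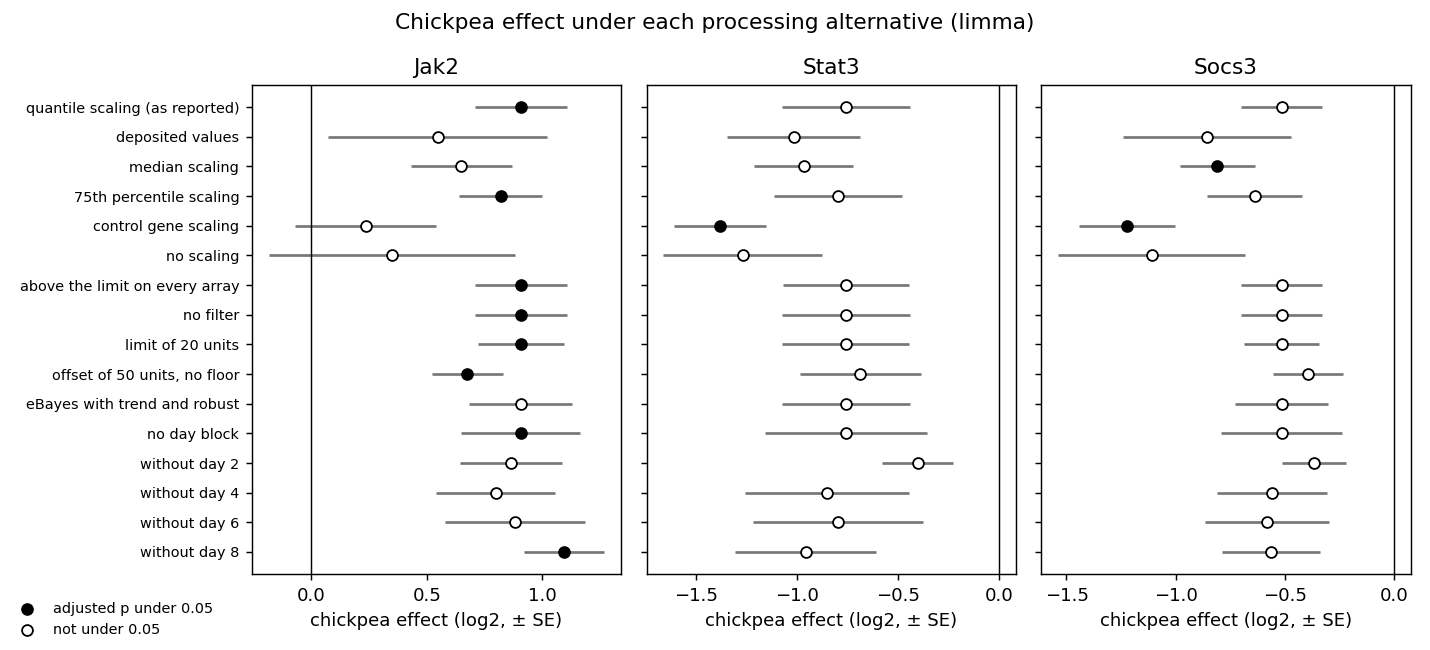
Chickpea effect of Jak2, Stat3 and Socs3 averaged over days 2 to 8, in log2 with its SE (limma), as reported (top row) and under each of 15 alternatives. Filled points have an adjusted p under 0.05. Each gene keeps its direction throughout, between 0.24 and 1.09 for Jak2, -1.38 and -0.40 for Stat3 and -1.22 and -0.37 for Socs3. The filter, limit, variance prior and day block settings could not change the estimate itself.

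Stat3 and Socs3 were each other's closest match in pattern with quantile scaling. Their quantile scaled log2 levels over the 9 arrays had a Pearson correlation of 0.93, the highest that either had with any of 187 other genes detected on all arrays. On the deposited values it was 0.95. Next to Stat3 came Ppp1r10, a regulatory subunit of protein phosphatase 1, at 0.86, and Srebf1, the transcription factor of fatty acid synthesis genes, at 0.77. Next to Socs3 came Traf2 at 0.83 and Tnfrsf1a at 0.82, the adaptor and the receptor of tumour necrosis factor signalling. All of these spots lie in block B, as do 100 of the 188 genes detected on all arrays. The genes share the arrays, and the correlations are descriptions over 9 points. For Ppp1r10, Srebf1, Traf2 and Tnfrsf1a the correlation on the deposited values was 0.96, 0.89, 0.95 and 0.94, so that there Ppp1r10 and Traf2 were above the value of the Stat3 and Socs3 pair. The genes with the lowest correlation were Mod1, the array's name for malic enzyme, for Stat3 (-0.85) and Dld, a subunit of the pyruvate dehydrogenase complex, for Socs3 (-0.86), and on the deposited values these were -0.09 and 0.08.

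The pattern of Jak2 was nearest to that of Insr, the insulin receptor gene (0.92 with quantile scaling, 0.96 on the deposited values). Vegfb, a vascular growth factor gene, followed at 0.90 and Hmox1, heme oxygenase, at 0.88, against 0.86 and 0.73 on the deposited values. Acss2, acetyl-CoA synthetase, was farthest at -0.84, against 0.18 on the deposited values. Jak2 itself correlated with Stat3 at -0.80 and with Socs3 at -0.80 on the quantile scaled levels. These 2 values were 0.06 and 0.21 on the deposited values, so the opposed pattern depends on the scaling.

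Few other genes of the pathway are on the array, and those upstream of JAK2 were mostly not detected. Of 15 cytokine and hormone ligands 4 were on the array. Lep (leptin), Prl (prolactin) and Il10 were not tested: Prl and Il10 were above the limit on 0 arrays and Lep on 1, the control array of day 8 with 16 units. Il6 had 14 units on the chickpea array of day 2 and 32 units on the control array of day 8, and was at or below 9 units on the other 7 arrays, and its effect was 0.05 ± 0.15 (limma adjusted p = 0.821). Lepr, the leptin receptor, had 0 to 2 units throughout. Il4ra, a receptor subunit of interleukin 4, was detected on all 9 arrays and had an effect of 0.77 ± 0.38 (limma adjusted p = 0.184), which includes control values at the lower bound on days 6 and 8. The other kinases of the family and the other STAT factors listed had 0 genes on the array. Ptpn1, the phosphatase that removes the phosphate from JAK2 and from the insulin receptor, had an effect of 0.06 ± 0.24 (limma adjusted p = 0.890).

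Of 25 genes known to be induced by STAT3 or STAT5 in some tissue, 12 were on the array and 11 were tested. With chickpea 0 passed upward and 2 downward, where 8.79% of all tested genes were called higher and 6.28% lower, and their median effect was 0.39, against 0.21 over all tested genes. The 2 were Hp, haptoglobin, an acute phase protein, and Pparg, the master regulator of fat cell formation. Hp had 4 to 6 units on the chickpea arrays, against 47, 998, 1780 and 1520 units on days 2, 4, 6 and 8 in control medium. Its fitted log2 difference was -4.37 ± 0.64 (limma adjusted p = 0.0182), with all 4 chickpea values set at the lower bound. Pparg fell by 1.60 ± 0.25 on the log2 scale (limma adjusted p = 0.0248). Pparg is also on the adipocyte marker list, whose 13 tested genes had 6 called lower and 0 higher, beside 6.28% and 8.79% of all tested genes. The chickpea difference of Agt, angiotensinogen, changed with day by 0.82 ± 0.05 per day (limma adjusted p = 0.00918), the 1 call among the 11 tested members, beside 3.35% of all tested genes. From day 2 to day 8 its level went from 6.41 to 9.65 in chickpea medium and from 10.36 to 8.68 in control medium. Agt was lower with chickpea on 3 of 4 days, with a mean effect of -1.56 ± 0.84 (limma adjusted p = 0.214). Ccnd1, Vegfa and Bcl2l1 had slopes of 0.49, -0.40 and -0.33, each with a limma adjusted p of 0.0621. Bcl2l1, a survival gene, had an estimate of 1.41 ± 0.37, was higher on 4 of 4 days and did not pass the test (limma adjusted p = 0.0620). The same held for Cebpb, at 0.88 ± 0.23 (limma adjusted p = 0.0620), and Cdkn1a, at 0.49 ± 0.23 (limma adjusted p = 0.169). In unscaled units Cebpb and Cdkn1a were lower with chickpea on days 4, 6 and 8 and Bcl2l1 on day 8, as was the median gene. Of all tested genes 27.6% were higher on all 4 days with quantile scaling, and 5 of the 11 tested members had an estimate below 0. Besides Hp, Pparg and Agt these were Cebpd and Ccnd1. Cebpd had -0.70 ± 0.24 (limma adjusted p = 0.0981), with arrays at the lower bound, and Ccnd1 had -0.43 ± 0.53 (limma adjusted p = 0.542).

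Downstream of SOCS3 in the insulin pathway, 5 of 6 listed genes were on the array and 4 were tested. Insr rose by 1.33 ± 0.24 with quantile scaling (limma adjusted p = 0.0288), and the counts of 1 of 4 higher and 0 of 4 lower stand beside 8.79% and 6.28% of all tested genes. It had 83, 76, 70 and 51 units on days 2 to 8 in chickpea medium, against 13, 56, 80 and 119 in control medium. In unscaled units Insr was thus lower with chickpea on days 6 and 8, and its call under other scalings is not given here. The substrate genes Irs1 and Irs2 had 0.48 ± 0.23 and 0.25 ± 0.28 (limma adjusted p = 0.175 and 0.504). Pik3r1, the regulatory subunit of PI 3-kinase, had -0.57 ± 0.20 (limma adjusted p = 0.103). It was lower on 4 of 4 days, as were 12.6% of all tested genes. Irs3 was above the limit on 0 arrays.

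**Figure D5:**
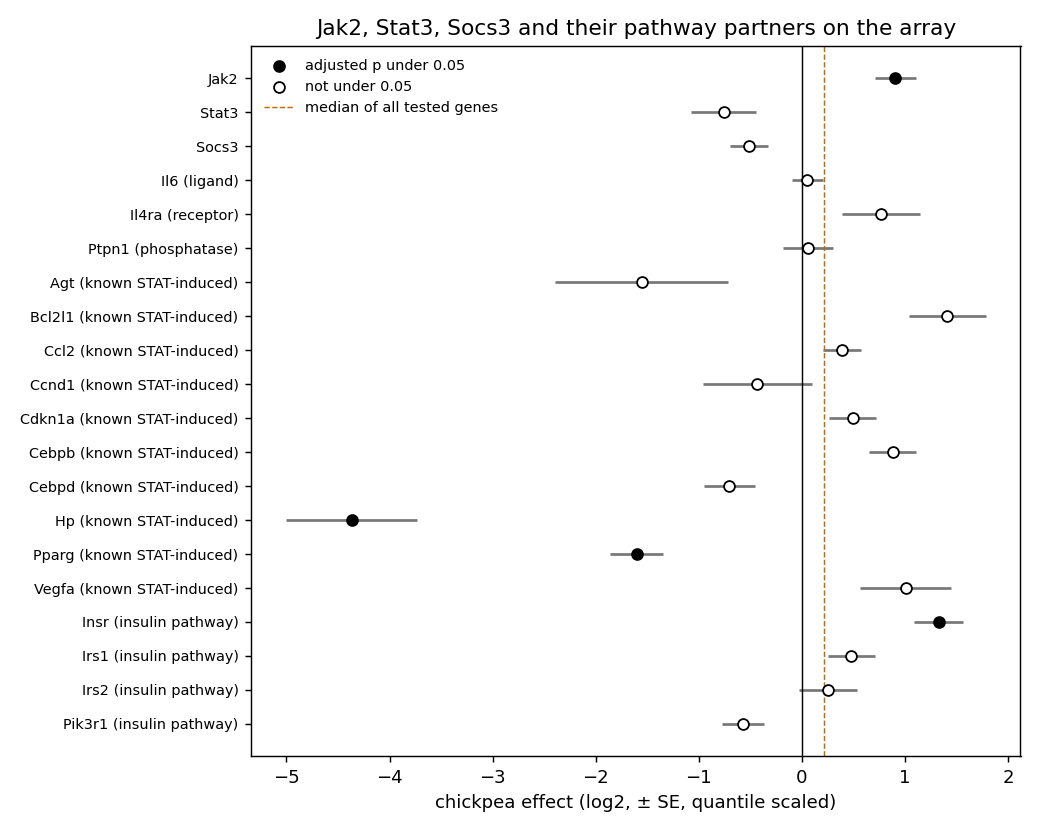
Chickpea effect over days 2 to 8 in log2 with its SE (limma, quantile scaled) for Jak2, Stat3, Socs3 and tested pathway partners. Filled points have an adjusted p under 0.05, the dashed line is the median of all tested genes at 0.21, and the values of Hp, Cebpd, Il6 and Il4ra include arrays at the lower bound. Jak2 and Insr are the filled points to the right of 0, Hp and Pparg those to the left.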

How the data were processed

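RNA from 9 samples was hybridised to 9 arrays carrying 321 metabolic and 9 control genes. The scan was read in GenePix Pro (version 6.1.0.4, local background, no normalization; file headers), and the deposited scanner table holds intensity as the median pixel minus local background and a signal-to-noise score per spot, per the file headers. The deposited value table holds linear intensity and the authors' steps are not given in the sources used here. All 354 entries equalled scanner intensity plus 2 or 3 units, multiplied by 1 factor per block that sets the mean of its 4 Gapdh spots to 10000 (relative tolerance 1e-06). That match named the rows and tied each sample to 1 scanner well. A further 3 wells of the slide were not used.

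Spots of a probe were averaged, and of several probes for a gene the brightest was kept. Arrays were quantile scaled from the log2 of the deposited value table, whereas the median, 75th percentile, control gene and unscaled alternatives started from scanner intensity with a small offset per array. Values were floored at log2 3.39, below which a difference is a bound. Genes needed more than 10 units on 2 arrays, a limit that 3 of 369 negative and empty spots exceeded. With 1 slide, its effect cannot be varied.

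Limma 3.58.1 (R 4.3.3, lmFit and eBayes) was fitted on all 239 tested genes, with Benjamini-Hochberg adjustment and a two-sided threshold of 0.05. The chickpea effect used 8 arrays (day 0 left out), blocked on the day that the labels give (3 residual degrees of freedom). The change with day added a linear term (2 degrees). Day 8 against day 0 used all 9 arrays with terms for day and medium, assuming 1 chickpea effect for all days. Precision is limited by how few arrays there are. Alternatives covered scaling, filter, limit, offset, variance prior, the day block and each day left out. The members, the gene lists and the limit were chosen with earlier results of these data known. By the naming rule, the text gives the 3 genes, tested ligands, receptors and inhibitors, members past a test on the STAT-induced and insulin lists, and for each gene the 3 closest and the 1 farthest pattern. Bcl2l1, Cebpb, Cebpd, Cdkn1a, Ccnd1, Vegfa, Adipoq, Irs1, Irs2 and Pik3r1 were named after their values were seen. The values of 1 gene of the STAT-induced list are not reported here. Promoters came from RefSeq tables (build GRCm38.p6), where all 3 symbols matched.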

Additional observations from a re-analysis of the deposited data

How the results depend on the processing

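Jak2, Stat3 and Socs3 kept the direction of their chickpea effect in all 15 alternatives. Changes of filter, limit, variance prior and day block left these estimates as they were by construction. With all daily differences of a gene on 1 side, leaving out 1 day could hardly turn the sign. Only the other scalings and the offset could readily do so. Jak2 lost its call on the deposited values (0.55), with median (0.65) or control gene scaling (0.24), without scaling (0.35) and with a trended robust prior (0.91), and leaving out 1 day gave 0.80 to 1.09. Stat3 gained a call with control gene scaling (-1.38), and Socs3 with median (-0.81) and control gene scaling (-1.22). The gaps between pairs of genes kept their direction in all 7 alternatives each. For both pairs with Jak2 the daily gaps all had the same sign, so leaving out 1 day could not turn their mean. Socs3 and Stat3 lie in the same block, so centring by block could not change their gap.

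The change with day turned to -0.094 for Stat3 and -0.20 for Socs3 on the deposited values, to -0.12 and -0.23 without scaling, and to -0.012 for Socs3 with control gene scaling. Leaving out 1 day gave -0.016 to 0.16 for Socs3. Day 8 against day 0 turned without scaling to 0.33 for Jak2, 0.47 for Stat3 and 0.32 for Socs3, where the median gene was at 0.48. The cause was not tested.

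The 36 genes called with chickpea became 7 on the deposited values, 15 without scaling, 73 without the day block and 0 to 70 with 1 day left out (70 when day 2 was omitted, 4 for day 6 and 0 for day 4, with 46 whose unadjusted limma p was under 0.05). For the change with day, 8 genes became 0 on the deposited values and with control gene scaling (54 and 50 unadjusted, limma), 4 with median scaling, 27 without scaling, 22 with genes above the limit on every array, 5 with an offset of 50 and 0 to 29 with 1 day left out (29 for day 2, 23 for day 8, 0 for days 4 and 6, where 64 and 39 had an unadjusted limma p under 0.05). For day 8 against day 0, 5 genes became 0 on the deposited values and with control gene scaling (49 and 36 unadjusted, limma), 2 with median or 75th percentile scaling or genes above the limit on every array, 3 without scaling, 11 with a limit of 20 units, 10 with the trended prior and 0 to 28 with 1 day left out (28 for day 2, 1 for day 6 and 0 for day 4, with 40 unadjusted, limma). With quantile scaling 21 chickpea calls were higher and 15 lower, against 6 and 21 with median scaling, 1 and 6 for deposited values, 24 and 19 with the 75th percentile, 0 and 15 unscaled and 2 and 28 by control genes. Depth here is signal: Socs3 on the chickpea arrays of days 6 and 8 and Jak2 on control day 2 stood under 1 background SD above their surroundings.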
